A study of Saccharomyces cerevisiae with 18 samples.

Results

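The genes described here make amino acids other than serine, glycine, cysteine and methionine in budding yeast. They were chosen by name: 7 genes of arginine synthesis, 4 of histidine, 7 of lysine, 10 of the branched-chain amino acids, 8 of the aromatic amino acids, 5 of the threonine route from aspartate, the asparagine synthetase gene ASN1, and GCN4, which encodes the transcription factor of the general control of amino acid synthesis. That makes 43 of the 6212 genes in the deposited table. Of these, 30 had a value on all 18 arrays, 7 on 17 arrays and 6 on fewer, and TRP3 could not be tested at any time point because it had 4 values.

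RNA came from wild-type BY4741, a laboratory strain that carries deletions in HIS3 and LEU2, genes of the histidine and leucine routes, among others. One culture was moved to a potassium-free medium with about 15 µM residual potassium, and its partner received the same medium with 50 mM KCl. The RNAs of both were hybridised together on spotted two-colour arrays 10, 20, 40, 60 and 120 min after the shift, with 2 arrays at 10 min, a single experiment hybridised in both dye orders. From 20 min on, each time point had 4 arrays from 2 independent experiments, called A and B here, again in both dye orders. Both cultures were wild type and were grown alike before the shift, so potassium supply is the only labelled difference between them.

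An array gave 1 value per gene, the log2 of the potassium-free signal over the KCl signal, so a positive value means relatively more messenger RNA without potassium. The direction and the log base are likely and not stated in the labels. A ratio is relative to the other genes on the array and gives no absolute amount of RNA. Arrays 1 and 2 of a time point were taken as experiment A and arrays 3 and 4 as experiment B, an assignment not given in the labels.

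In budding yeast, starvation for an amino acid stalls translation start in a way that raises production of the Gcn4 protein, which then activates genes in many amino acid routes. Much of this control acts on translation of the GCN4 messenger through short upstream reading frames, so the level of that messenger alone does not report Gcn4 activity. Individual routes have further controls of their own: Lys14 with a lysine pathway intermediate, Leu3 with a leucine pathway intermediate, and the arginine repressor complex.

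Without potassium, HIS4 and HIS5 of histidine synthesis, ARG4 of arginine synthesis and HOM3, the aspartate kinase gene, were higher from 40 to 120 min, at 1.69-fold to 5.06-fold. Of the branched-chain genes, 4 of the 9 tested were lower at 60 min (25.1% of all genes were), with ILV5, the acetohydroxyacid reductoisomerase gene, 3.36-fold lower. Of the lysine genes, 1 of the 6 tested was lower at 60 min and 5 of 6 at 120 min (22% of all genes were), with LYS4, the homoaconitase gene, 2.66-fold lower at 120 min. In the limma fit with Benjamini-Hochberg adjustment over all genes tested, 20 of the 43 genes passed the threshold of 0.05 at 1 time point or more. The same count over all genes was not made. At 60 min alone 46.8% of all genes passed, against 32.4% of the genes tested here, and at 120 min 42.3% against 36.8%. With arrays scaled to the same spread, HOM3 did not pass at 60 or 120 min. HIS5 then did not pass at 60 min, nor HIS4 and ARG4 at 120 min.

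**Figure D1:**
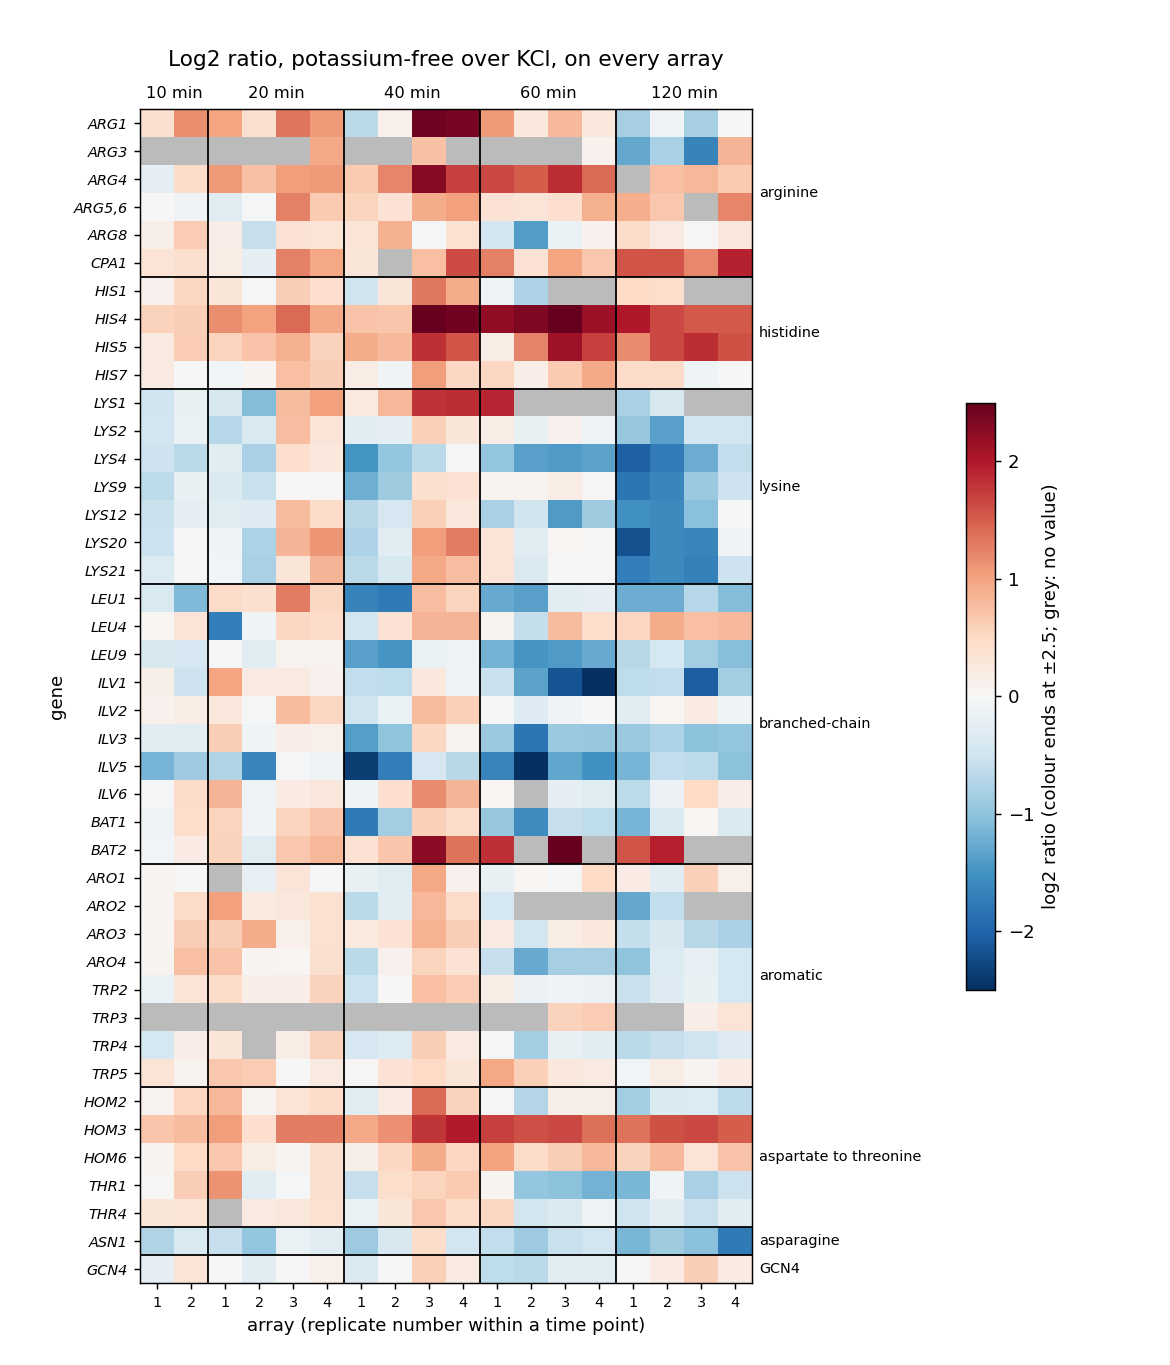
Log2 ratios (potassium-free over KCl) of the amino acid genes, 1 row per gene grouped by route (1 gene is not shown) and 1 column per array in order of time. Red is higher and blue lower without potassium, colours end at a log2 ratio of 2.5 in either direction, and grey marks no value. HIS4 and HOM3 are above 0 on all 18 arrays.

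At 10 min, where the lone experiment was assumed to vary like the others, none of the 41 genes tested passed in limma, against 0% of all genes, and none was under 0.05 unadjusted, where 2.8% of all genes were. At 20 min again 0 of 41 passed, against 0.482% of all genes. In the same limma fit 4 were under 0.05 unadjusted (6.24% of all genes were), and the lowest adjusted p was 0.243 (HOM3). When each array counted as a replicate in limma, 3 passed, as did 113 of 4361 genes over the whole table. At 40 min 4 of 41 genes were called, or 9.76%, against 8.93% of all genes, and all 4 were higher, where 5.23% of all genes were higher and 3.7% lower. At 60 min 12 of 37 were called, or 32.4% against 46.8%, with 5 higher and 7 lower (2 higher and 1 lower once arrays were scaled to the same spread or quantile normalized). At 120 min 14 of 38 were called, or 36.8% against 42.3%, with 7 in each direction (1 in each once arrays were scaled to the same spread or quantile normalized, and 8 higher and 20 lower with the other pairing of arrays).

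By direction, 13.5% of the genes tested were higher at 60 min against 21.7% of all genes, and 18.9% were lower against 25.1%. At 120 min 18.4% were higher against 20.4%, and 18.4% lower against 22% of all genes. In the fit as reported the shares lie near the background at 40 and 120 min and under it at 60 min, and no test compared them. With the other pairing of arrays, 18 of 41 were called at 40 min (1244 of 4703 over all genes). At 60 min it was 22 of 37 (2458 of 4127) and at 120 min 28 of 38 (2497 of 4410). Scaling to the same spread gave 3 of 37 at 60 min (1157 of 4127) and 2 of 38 at 120 min (1067 of 4410). Where the shares lie thus depends on the pairing and the scale. Each mean has 2 experiments behind it, the p-values use a spread pooled over all time points, and the number of arrays limits the precision. When 1 experiment of a time point was left out, 29 of the 33 calls (30 at single time points and 3 between time points) were lost; ARG4 and HIS4 at 60 min and HOM3 at 60 and 120 min kept theirs without either one. Such a fit keeps a single experiment value at that time point, so the loss cannot be read as particular to these genes. Scaling the arrays to the same spread also ended 23 of the 33 calls, as did quantile normalization, and reversed none. HOM3 lost its calls at 60 and 120 min under scaling (limma, adjusted p = 0.0836 and 0.0772) and quantile normalization (0.0547 and 0.0546). HOM6 lost both under scaling (0.0638 and 0.0892). Scaling also ended ARG4 (0.222), HIS4 (0.077) and CPA1 (0.141) at 120 min and HIS5 (0.0517) at 60 min. ARG4 and HIS4 kept their 60 min calls (0.0345 and 0.0363), and all 4 calls of 40 min were kept. Over all genes, scaling took the calls from 1932 to 1157 at 60 min, from 1867 to 1067 at 120 min, and from 420 up to 701 at 40 min.

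**Figure D2:**
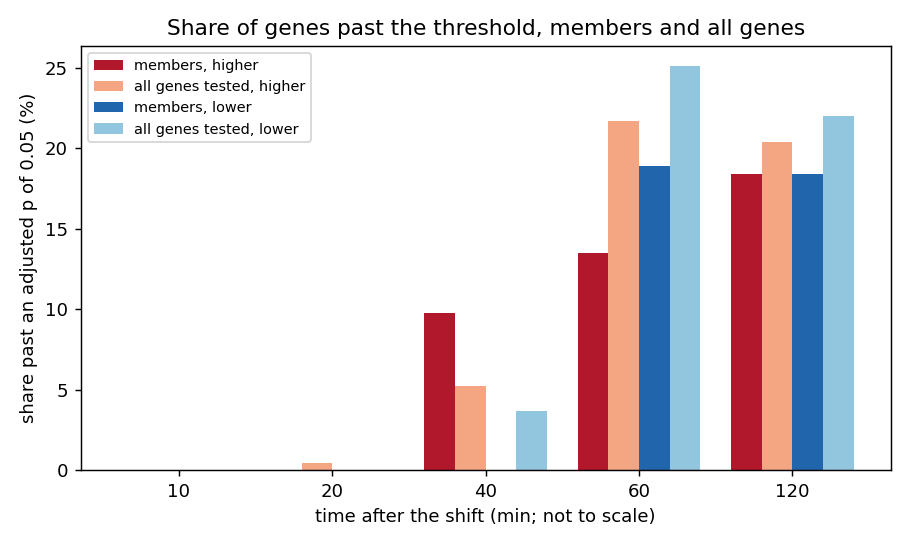
Percent of genes tested that were called higher or lower at each time point, for the amino acid genes and for all genes. Bars start at 0. At 60 min 13.5% of the amino acid genes were higher and 18.9% lower, against 21.7% and 25.1% of all genes.

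Experiments A and B differed for these genes at the early time points, and for the lysine genes also at 120 min. At 40 min, experiment B gave the higher log2 ratio for 40 of 41 genes, with a median difference of 0.90, whereas over all genes B was higher in 47.3% with a median difference of -0.03. The gap was 1.29 in the lysine genes and 1.27 in the branched-chain genes, and smallest in the threonine genes at 0.68. At 20 min B was higher for 31 of 41 genes, by a median of 0.39. It was higher for 24 of 37 genes at 60 min (median 0.10) and for 24 of 38 at 120 min (median 0.11). In the lysine genes, however, B was higher for 6 of 6 at 120 min, by a median of 0.99. The 40 min means below, and the 120 min means of the lysine genes, therefore average 2 unlike experiments. What differed between the experiments was not tested. The gap was smaller in other routes at 40 min, with a median of 0.24 over 11 genes of sulfate assimilation and methionine synthesis and 0.27 over 6 genes of serine and glycine synthesis.

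**Figure D3:**
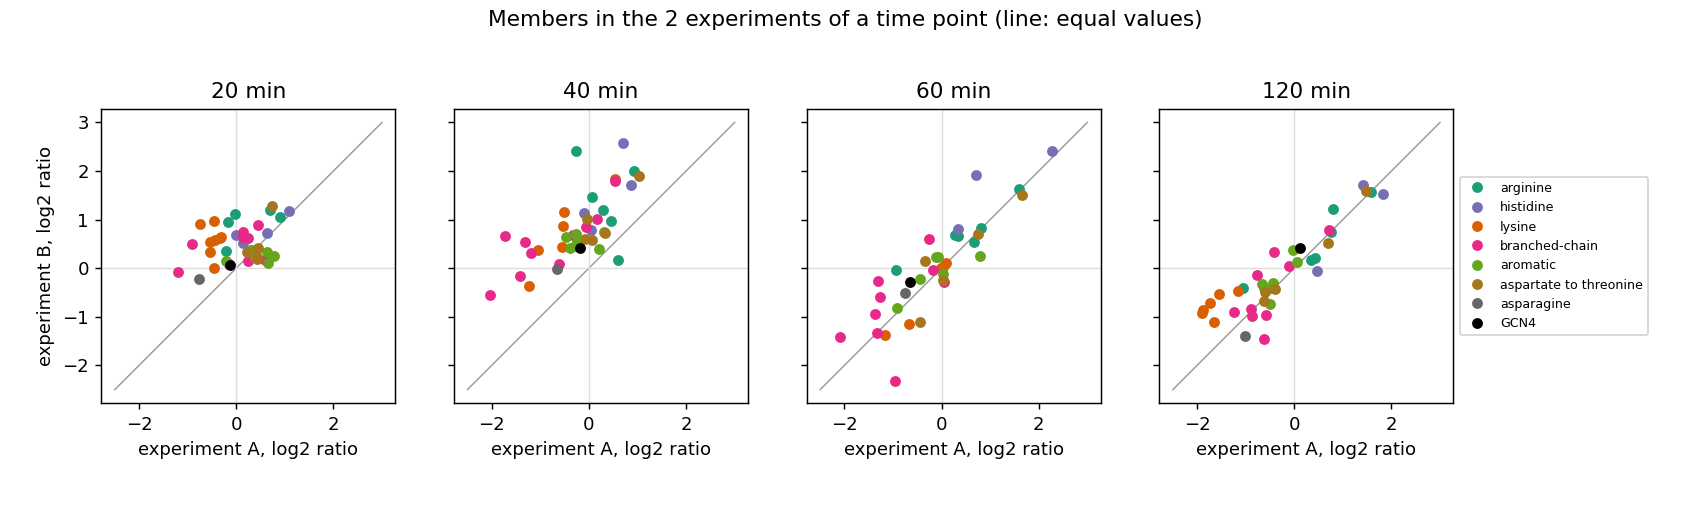
Log2 ratio of each amino acid gene in experiment A (horizontal) against experiment B (vertical) at 20, 40, 60 and 120 min, with the line of equal values. At 40 min 40 of 41 points lie above the line; at 60 and 120 min 24 of 37 and 24 of 38 do.

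Arginine is made from glutamate through ornithine and carbamoyl phosphate. ARG4 (YHR018C), encoding the last enzyme, argininosuccinate lyase, was the route's highest gene at 60 min. Its log2 ratio was 0.65, 1.22, 2.27 and 1.72 on the 4 arrays of 40 min, 1.65, 1.52, 1.84 and 1.41 on those of 60 min, and 0.76, 0.83 and 0.66 on the 3 of 120 min with a value. All of these lie above 0. The mean was 1.46 ± 0.24 (SE, 2 experiments) at 40 min, 1.61 ± 0.24 at 60 min, which is 3.05-fold (limma, adjusted p = 0.00201), and 0.75 ± 0.24 at 120 min (adjusted p = 0.0418). The 120 min call was lost without array 2 (adjusted p = 0.155) or array 3 (0.0584).

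CPA1 (YOR303W), which encodes a subunit of carbamoyl phosphate synthetase, was higher at 120 min, with 1.57, 1.57, 1.21 and 1.92 on the 4 arrays, 2.96-fold on average (limma, adjusted p = 0.00661). At 60 min its mean of 0.82 did not pass (adjusted p = 0.0567). All 4 arrays lay well above 0 at 120 min. ARG5,6 (YER069W), whose product is cut into acetylglutamate kinase and the reductase that follows it, was 2.01-fold higher at 120 min (0.90, 0.68 and 1.22 on 3 arrays, adjusted p = 0.0272), a call lost without array 4 (adjusted p = 0.182).

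ARG1 (YOL058W), the argininosuccinate synthetase gene that acts just before ARG4, differed widely between the experiments. At 40 min it read 2.44 and 2.38 in experiment B but -0.67 and 0.12 in A, and its mean of 1.07 was not called (adjusted p = 0.225). At 120 min it read -0.82, -0.09, -0.82 and -0.01, so all 4 arrays lay below 0 while ARG4 lay above. ARG8 (YOL140W), the acetylornithine aminotransferase gene, was the lowest arginine gene at 60 min, at -0.48, -1.40, -0.17 and 0.10, and was not called. ARG3, ornithine carbamoyltransferase, had 7 values in all and read -1.29, -0.81, -1.67 and 0.85 at 120 min, with a mean of -0.73 that did not pass (adjusted p = 0.071).

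Histidine synthesis was represented by 4 genes. HIS4 (YCL030C), whose product carries out several steps of the route, was above 0 on all 18 arrays. Its log2 ratio was 0.58 and 0.61 at 10 min, 1.15, 1.01, 1.41 and 0.94 at 20 min, and 0.70, 0.69, 2.76 and 2.41 at 40 min, where experiment B stood well above A. At 60 min it was 2.21, 2.33, 2.68 and 2.14, and at 120 min 2.00, 1.66, 1.53 and 1.54, so the experiments lay close together from 60 min on.

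The HIS4 mean was 3.12-fold higher at 40 min (limma, adjusted p = 0.0428), 5.06-fold at 60 min (log2 2.34 ± 0.38 SE, adjusted p = 0.00257), the highest among the 37 amino acid genes tested then, and 3.21-fold at 120 min (adjusted p = 0.0124). Without array 1 of 40 min the 40 min call was lost (adjusted p = 0.053). HIS5 (YIL116W), the histidinol phosphate aminotransferase gene, read 0.93, 0.81, 1.83 and 1.57 at 40 min, 0.19, 1.25, 2.12 and 1.70 at 60 min, and 1.18, 1.66, 1.84 and 1.60 at 120 min. It was called higher at 40 min (adjusted p = 0.0461), 60 min (2.49-fold, 0.0106) and 120 min (2.97-fold, 0.00724). The 40 min call was lost without array 1 (adjusted p = 0.0605) or 3 (0.0576), and the 60 min call without array 2 (0.0603).

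HIS7 (YBR248C), the imidazole glycerol phosphate synthase gene, was the lowest histidine gene tested at 60 min, at 0.52, 0.17, 0.66 and 0.94, and was not called (adjusted p = 0.115). HIS1, which encodes the first and feedback-inhibited enzyme, read 1.32 and 0.94 in experiment B and -0.49 and 0.30 in A at 40 min. Its only values at 60 min were -0.13 and -0.78, and it was not tested there. Thus 2 of the 4 genes, HIS4 and HIS5, were higher, and the other two were not called at any time. HIS3, of which this strain carries a partial deletion, had values on all 18 arrays and was not called at 60 min (0.35) or 120 min (0.52).

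In the aspartate family, HOM3, HOM2 and HOM6 lead to homoserine, which THR1 and THR4 turn into threonine and which is also the precursor of methionine. HOM3 (YER052C), aspartate kinase, the first and feedback-controlled step, was above 0 on all 18 arrays. It read 0.94, 1.14, 1.79 and 1.99 at 40 min, 1.72, 1.61, 1.65 and 1.38 at 60 min, and 1.36, 1.58, 1.66 and 1.51 at 120 min. The mean was 2.76-fold higher at 40 min (limma, adjusted p = 0.0168), 3.01-fold at 60 min (log2 1.59 ± 0.24 SE, 0.00189) and 2.89-fold at 120 min (0.00289).

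HOM6 (YJR139C), homoserine dehydrogenase, was also higher, at 1.65-fold at 60 min (adjusted p = 0.0107) and 1.52-fold at 120 min (0.0265). Its 120 min call was lost without array 4 (adjusted p = 0.0604). HOM2, aspartate semialdehyde dehydrogenase, was not called at any time and read -0.87, -0.36, -0.33 and -0.66 at 120 min.

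THR1 (YHR025W), the homoserine kinase gene, read 0.07, -0.96, -1.03 and -1.17 at 60 min, with array 1 apart from the other 3, and was 1.71-fold lower (limma, adjusted p = 0.0273). Without array 2 its 60 min mean was -0.52 and not called (adjusted p = 0.197), and the call was also lost with arrays scaled to the same spread (0.162) or 1 experiment left out (0.285). At 120 min it read -1.15, -0.08, -0.81 and -0.54 (adjusted p = 0.0559). HOM3 exceeded THR1 on all 4 arrays at 60 min, by 2.11 in experiment A and 2.62 in B, and on all 4 at 120 min, by 2.09 and 2.26. THR4, threonine synthase, read 0.52 (array 1), -0.45, -0.37 and -0.13 at 60 min and -0.51, -0.27, -0.57 and -0.29 at 120 min and was not called.

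**Figure D4:**
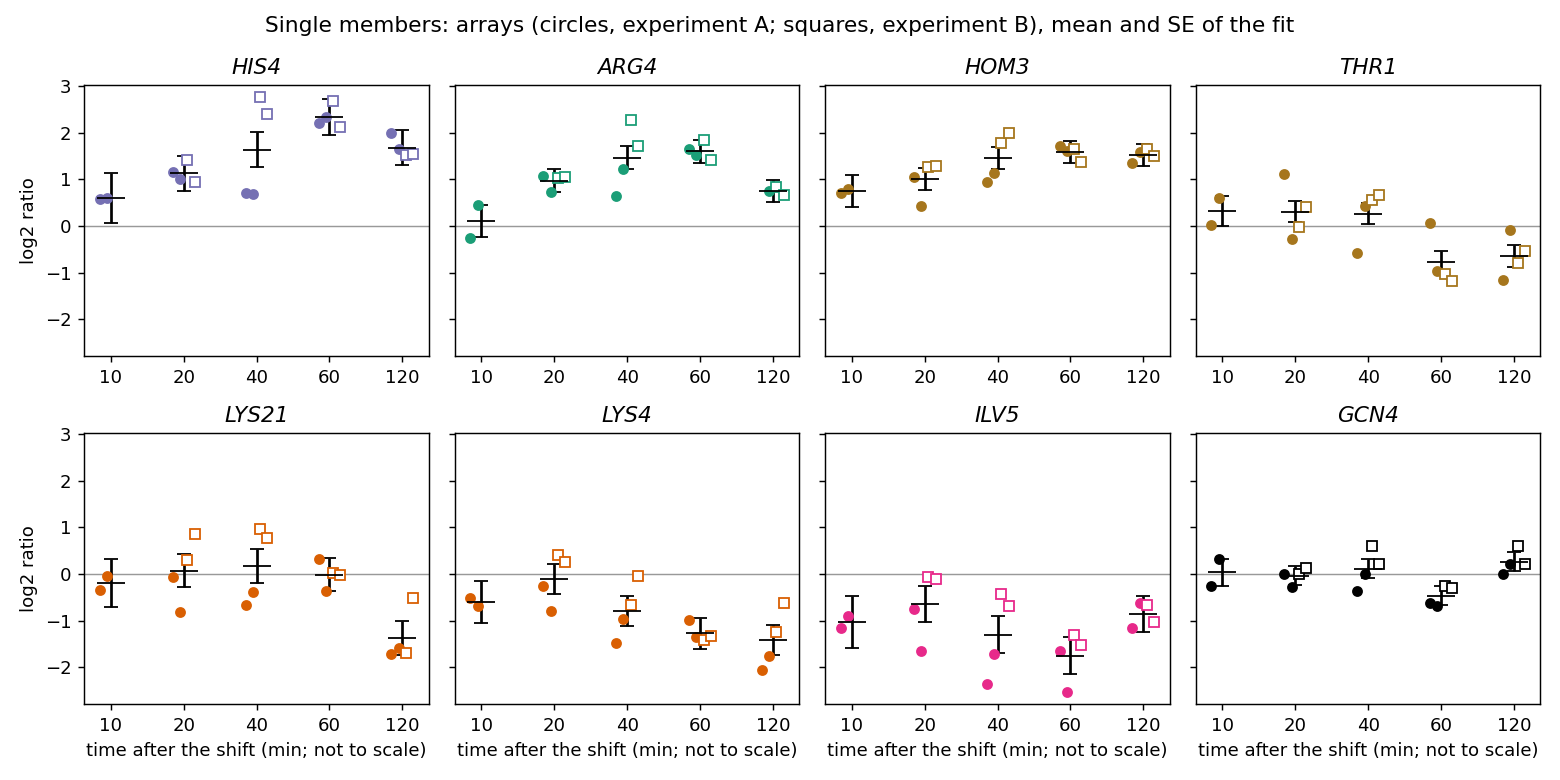
Log2 ratios of HIS4, ARG4, HOM3, THR1, LYS21, LYS4, ILV5 and GCN4 on each array against time (not to scale), with arrays as points and the fitted mean ± SE as a line. At 120 min HOM3 lies between 1.36 and 1.66, while the 4 arrays of LYS21 lie between -1.71 and -0.52.

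ASN1 (YPR145W), 1 of the 2 asparagine synthetase genes and the other product of aspartate here, went lower. It was below 0 on 17 of 18 arrays, and read -0.62, -0.90, -0.55 and -0.48 at 60 min (adjusted p = 0.053) and -1.13, -0.89, -1.04 and -1.77 at 120 min. The 120 min mean was 2.31-fold lower (limma, log2 -1.21 ± 0.23 SE, adjusted p = 0.00618). The paralogue ASN2, outside the 43 genes, was lower at 60 min (-0.74, adjusted p = 0.0169) and 120 min (-1.27, 0.00269).

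Lysine synthesis in yeast runs through aminoadipate, starting with homocitrate synthase, encoded by the pair LYS20 and LYS21. At 120 min 5 of the 6 lysine genes tested were lower, against 22% of all genes, and the other one, LYS2 (aminoadipate reductase), had a mean of -0.82 that did not pass (adjusted p = 0.0638). The median over the 6 genes was -1.30, and per array it was -1.77, -1.59, -1.15 and -0.49, so array 4 showed the smallest change. By experiment it was -1.69 in A and -0.79 in B, and B was higher for 6 of 6 genes. Over all genes tested the 120 min median was 0. Leaving out 1 array at a time moved the lysine median between -1.34 and -0.99.

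LYS21 (YDL131W) read -0.35 and -0.04 at 10 min, -0.06, -0.81, 0.30 and 0.86 at 20 min, and -0.67, -0.39, 0.96 and 0.77 at 40 min, with A below 0 and B above. At 60 min it was 0.33, -0.37, 0.01 and -0.02, with no common direction, and at 120 min -1.71, -1.59, -1.69 and -0.52, 2.60-fold lower on average (limma, adjusted p = 0.0209). LYS20 (YDL182W) followed the same course, with 0.32, -0.28, 0.04 and 0.01 at 60 min and -2.17, -1.59, -1.63 and -0.09 at 120 min, 2.59-fold lower (adjusted p = 0.0488). The pair differed by at most 0.09 on the arrays of 60 min and by -0.46 to 0.43 on those of 120 min. Signal shared between the probes of so similar a pair was not checked.

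All 5 calls at 120 min were lost with arrays scaled to the same spread (adjusted p = 0.0923 for LYS4 to 0.273 for LYS20), under quantile normalization (0.0804 to 0.232) and with 1 experiment left out (0.103 to 0.369). LYS21 was lost without array 3 (adjusted p = 0.0726), LYS20 without array 1 (0.0643) or 3 (0.185), and LYS9 (YNR050C), a saccharopine dehydrogenase gene at 2.34-fold lower, without array 3 (0.0557). LYS12, homoisocitrate dehydrogenase, at 2.06-fold lower, was lost without array 1 (0.0516), 2 (0.0515) or 3 (0.172).

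LYS4 (YDR234W), homoaconitase, was the lysine gene already called at 60 min. It read -1.49, -0.98, -0.68 and -0.05 at 40 min (adjusted p = 0.157), -0.99, -1.35, -1.42 and -1.33 at 60 min, where it was 2.42-fold lower (0.0146), and -2.05, -1.75, -1.24 and -0.61 at 120 min, 2.66-fold lower (0.0131). LYS12 also lay below 0 on all 4 arrays of 60 min, at -0.82, -0.51, -1.41 and -0.89, and was not called (adjusted p = 0.07). LYS9 was the highest of the 6 lysine genes tested at 60 min with 0.10, 0.10, 0.19 and 0.02, before -1.82, -1.64, -0.92 and -0.52 at 120 min. LYS1, the other saccharopine dehydrogenase gene, read 0.25, 0.83, 1.81 and 1.85 at 40 min, and was not called (adjusted p = 0.181). Later it had 1.90 on 1 array of 60 min and -0.81 and -0.40 at 120 min, too few to test.

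Branched-chain synthesis leads from threonine by threonine deaminase (ILV1) to isoleucine, and from pyruvate by acetolactate synthase (ILV2 with its regulatory subunit ILV6), ILV5 and ILV3 to valine and, through LEU4 or LEU9 and LEU1, to leucine. At 60 min 4 of the 9 genes tested were lower, against 25.1% of all genes, and none was higher, against 21.7%. BAT2, the other gene of the route, read 1.82 and 2.88 then, too few values to test. The ILV1 call held when arrays were scaled to the same spread (adjusted p = 0.0304), and those of ILV3 (0.135), ILV5 (0.118) and LEU9 (0.0723) did not. Experiment A had a median of -1.26 and B one of -0.60, for -0.93 in the fit. Per array it was -0.94, -1.41, -0.57 and -0.64, against -0.09 over all genes in the fit. At 120 min the median was -0.77 and no gene of the route was called. With 2 arrays required, which keeps BAT2, the median was -0.857 at 60 min and -0.615 at 120 min.

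ILV5 (YLR355C) was below 0 on all 18 arrays, starting at -1.16 and -0.90 at 10 min. It read -0.76, -1.64, -0.06 and -0.10 at 20 min and -2.37, -1.73, -0.42 and -0.69 at 40 min (adjusted p = 0.081), lower in A than in B at both. At 60 min it was -1.65, -2.53, -1.30 and -1.52, 3.36-fold lower (limma, log2 -1.75 ± 0.39 SE, adjusted p = 0.00872), and at 120 min -1.17, -0.61, -0.66 and -1.02 (adjusted p = 0.11).

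ILV1 (YER086W) was 3.11-fold lower at 60 min (adjusted p = 0.00823), at -0.56, -1.33, -2.17 and -2.48, with B lower than A, the opposite order to ILV5. ILV3 (YJR016C), dihydroxyacid dehydratase, was 2.22-fold lower (adjusted p = 0.0214), at -0.94, -1.81, -0.92 and -0.94. At 120 min ILV1 and ILV3 narrowly missed the threshold and were not called (limma, adjusted p = 0.0503 and 0.0513). ILV2 and ILV6, which make the first common enzyme, read between -0.32 and 0.06 at 60 min and were not called at any time.

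The isopropylmalate synthase genes LEU4 (YNL104C) and LEU9 (YOR108W) parted. LEU9 read -1.19, -1.47, -1.42 and -1.26 at 60 min, 2.52-fold lower (adjusted p = 0.0075), whereas LEU4, the highest of the 9 genes tested, read 0.09, -0.60, 0.78 and 0.43 and was not called. LEU4 exceeded LEU9 on all 4 arrays at 40, 60 and 120 min, by 1.07 in A and 1.94 in B at 60 min and by 1.30 and 1.75 at 120 min. LEU1, the isomerase that follows, was below 0 on all 4 arrays of 60 min (-1.35 to -0.24) and of 120 min (-1.25 to -0.71), and was not called.

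The branched-chain aminotransferase genes also parted. BAT1 (YHR208W), the mitochondrial enzyme, read -1.76, -0.87, 0.59 and 0.48 at 40 min and -0.96, -1.57, -0.57 and -0.64 at 60 min (adjusted p = 0.0978). BAT2 (YJR148W), the cytosolic enzyme, read 0.36, 0.70, 2.24 and 1.37 at 40 min (adjusted p = 0.1). It had only 1.82 and 2.88 at 60 min and 1.56 and 1.94 at 120 min, too few to test. BAT2 exceeded BAT1 on 4 of 4 arrays at 40 min, by 1.85 in A and 1.27 in B, and on both arrays with a value at 60 min, by 2.78 and 3.45.

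Aromatic synthesis starts with DAHP synthase, encoded by ARO3 (inhibited by phenylalanine) and ARO4 (inhibited by tyrosine), passes through the multifunctional Aro1 and the chorismate synthase Aro2, and branches to tryptophan through TRP2 to TRP5. At 60 min its median over 6 genes was 0.01, and ARO4 (YBR249C) alone was called, at -0.58, -1.26, -0.82 and -0.82, 1.83-fold lower (limma, adjusted p = 0.012). ARO3 (YDR035W) read 0.21, -0.45, 0.19 and 0.27 then and exceeded ARO4 on all 4 arrays, by 0.80 in A and 1.05 in B.

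At 120 min the order of this pair no longer held: ARO3, at -0.59, -0.39, -0.68 and -0.81, was 1.54-fold lower (adjusted p = 0.0467), a call lost without array 1 (0.0672) or 4 (0.0596), and ARO4 read -0.997, -0.34, -0.20 and -0.44 (adjusted p = 0.0922). TRP5 (YGL026C), tryptophan synthase, was the highest of the 6 aromatic genes tested at 60 min with 0.97, 0.60, 0.26 and 0.23 and was not called (adjusted p = 0.0753). ARO1, TRP2 and TRP4 were not called at any time. ARO2 was tested up to 40 min and not called, and TRP3 read 0.58 and 0.63 at 60 min and 0.17 and 0.35 at 120 min.

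The GCN4 (YEL009C) messenger stayed near 0. It read -0.25 and 0.33 at 10 min, 0.00, -0.28, 0.01 and 0.13 at 20 min, -0.36, 0.00, 0.60 and 0.22 at 40 min, -0.63, -0.68, -0.26 and -0.31 at 60 min, and 0.01, 0.21, 0.61 and 0.21 at 120 min. The lowest adjusted p was 0.0974, at 60 min, where all 4 arrays lay below 0; at 120 min all 4 lay above. PCL5, which encodes a cyclin that promotes breakdown of the Gcn4 protein, was higher at 60 min (1.42, adjusted p = 0.00287) and 120 min (2.02, 0.00153).

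The change from 20 to 60 min was called in 3 of 37 genes, or 8.11%, against 24.9% of all genes, and all 3 fell, as did 14.7% of all genes. The ILV1 ratio fell by 2.02 on the log2 scale (limma contrast, adjusted p = 0.0294), that of ARO4 by 1.18 (0.0289) and that of THR1 by 1.08 (0.0476). Without array 2 of 60 min none of the 3 passed (adjusted p = 0.0678, 0.0631 and 0.207), and THR1 was also lost without arrays 1 (0.169) or 4 (0.0795) of 20 min or array 4 (0.0533) of 60 min. From 60 to 120 min no gene passed, against 0% of all genes in the same limma contrast, with 4 of 37 under 0.05 unadjusted (20.1% of all genes); the drop of the lysine genes between these times was -1.37 in LYS21 (adjusted p = 0.211) and -1.33 in LYS9 (0.216). In the F test over 20 to 120 min 0 of 37 passed, against 14.1% of all genes, with 4 under 0.05 unadjusted (36.4% of all genes) and 0.0725 the lowest adjusted p (ARO3).

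**Figure D5:**
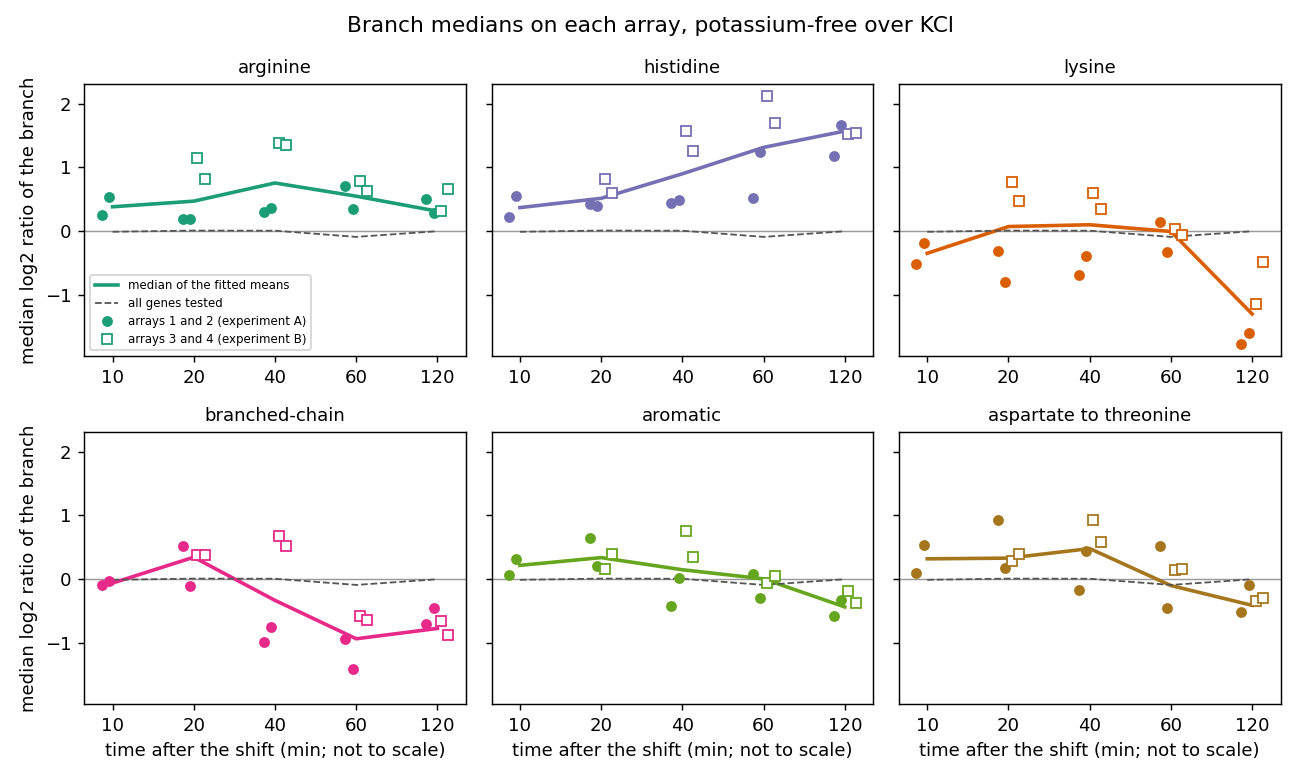
Median log2 ratio of the genes of each of 6 routes at each time point (not to scale). Filled circles are arrays of experiment A, open squares those of experiment B, the solid line joins the medians of the fitted means and the dashed line is the median of all genes. Lysine drops to -1.30 at 120 min while histidine stands at 1.57 without HIS1 (1.02 with 2 arrays required, which keeps HIS1).

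The gap between the highest and lowest route median was 0.73, 0.44, 1.23, 2.25 and 2.87 at the 5 time points in order. Once all arrays had an equal spread it was 1.32 at 10 min, 0.77 at 20 min and, later, 1.38 (60 min) and 2.05 (120 min), so the widening from 10 to 60 min rests on the scale of the values as deposited. In the fit histidine was the highest route from 20 min on (0.52, 0.90, 1.31 and 1.57), though its last 2 medians cover 3 genes. HIS1 had too few values to be tested at 60 and 120 min. With 2 arrays required, which keeps HIS1, the histidine median was 0.94 at 60 min and 1.02 at 120 min. The gap to the lowest route was then 1.80 and 2.24. Much of the rise of the histidine median after 40 min thus goes with the change in genes tested. Within experiments the order differed early: at 20 min threonine led in A (0.43 against 0.39 for histidine) and arginine in B (1.00 against 0.71), and at 40 min arginine and histidine were level in A (0.38 and 0.37). Arginine followed at 20, 40, 60 and 120 min (0.47, 0.76, 0.55 and 0.31). The lowest route was lysine at 20 min (0.07, from -0.46 in A and 0.58 in B, where aromatic was lowest at 0.26), branched-chain at 40 min (-0.33) and 60 min (-0.93), and lysine at 120 min (-1.30). At 120 min lysine was lowest in experiment A (-1.69 against -0.63 for branched-chain), while in B both lay near each other (-0.79 and -0.84). At 40 min the branched-chain median was -0.91 in A and 0.60 in B, so its place at that time differs between experiments. Genes of 1 route are not replicates of each other, and these medians carry no test.

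Other genes of the same routes went both ways. Of 11 such genes 10 were tested at 60 min, with 1 higher and 3 lower, and at 120 min, with 5 higher and 4 lower. Over all genes tested 21.7% were higher and 25.1% lower at 60 min, and 20.4% and 22% at 120 min. ARG2, acetylglutamate synthase, was higher at 60 min (0.78, adjusted p = 0.0319), ARG7 (0.87, 0.06) and PHA2 (0.12) were not called, and ARO7, chorismate mutase (-1.18, 0.00506), and HIS6 (-0.90, 0.0152) were lower. TYR1, prephenate dehydrogenase, not called at 60 min, was higher at 120 min (1.02, 0.00526).

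Among 10 genes of glutamate, glutamine, aspartate, alanine and proline metabolism, 2 were higher and 3 lower at 60 min (21.7% and 25.1% of all genes were). At 120 min 1 was higher and 4 lower (20.4% and 22% of all genes were). ALT1, alanine aminotransferase, was higher at both times (2.08, adjusted p = 0.000867, then 2.59, 0.0009), and GLN1, glutamine synthetase, at 60 min (1.20, 0.00957), while GDH3 (0.92) did not pass. GDH1, the main glutamate dehydrogenase for ammonium assimilation, was lower at both (-1.35, 0.00269, then -1.94, 0.00146), as were PRO1 (-1.44 at 60 min) and PRO3 (-0.62), enzymes of proline synthesis.

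Of 12 regulators of these routes 10 were tested at 60 min and 11 at 120 min, with 2 higher and 1 lower at each. The shares of all genes were 21.7% higher and 25.1% lower at 60 min, and 20.4% and 22% at 120 min. PCL5 and GLN3, a nitrogen-responsive activator (0.52, adjusted p = 0.0365), were higher at 60 min, GCN3, a subunit of the initiation factor eIF2B, was lower (-0.93, 0.00726), and BAS1, ARG80 and LYS14 were not called. Of the genes of amino acid breakdown 2 of 3 tested were higher at 60 min (21.7% of all genes were) and 3 of 5 at 120 min (20.4%), and none was lower. ARO9, an aromatic aminotransferase gene, read -3.04 and -2.45 at 10 min and lay below 0 on all 4 arrays of 20 min (-1.54 to -0.79), without a call. CAR1, arginase, was 1.51 at 60 min (adjusted p = 0.00136) and CAR2, ornithine aminotransferase, 0.93 (0.0167), at the same time as ARG4 was higher.

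The serine and sulfur genes give the scale. At 60 min all 10 tested genes of sulfate assimilation and methionine synthesis were higher, with a median log2 ratio of 3.98. Of 6 serine and glycine genes, 4 were higher and 1 lower, with a median of 0.89. Over all genes tested 21.7% were higher and 25.1% lower. Both lists were chosen with earlier results of these data known. The amino acid genes described here had a median of -0.04 at 60 min and -0.45 at 120 min, where the sulfur genes stood at 3.62 and all genes at 0. HIS4, the highest of their 37 genes tested at 60 min, reached 2.34, below that sulfur median.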

How the data were processed

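The deposited table holds 1 log2 ratio per gene and array, potassium-free over KCl, made by the authors; the unit and the direction were taken from the values and titles. Growth was at 28 °C per the labels, and spots smaller than 120 µm or dimmer than 100 intensity units had been dropped. How background was corrected and arrays were normalized, and the genome build, is not given in the sources used here, so no positions are printed. For 1 array of 10 min the labels name a single dye in both channels; the dye order in its title was used. Arrays held 3913 to 5372 values, with medians of -0.237 to 0.179, and every pair of arrays correlated above 0 across genes (lowest 0.0416). All 43 genes matched RefSeq R64 locus tags.

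Dye-swap pairs were averaged to 9 experiment values per gene. Arrays of an experiment had a consensus correlation of 0.252 as paired here, and of -0.236 when arrays 1 and 3, and 2 and 4, were paired. The whole table was fitted in limma 3.58.1 under R 4.3.3. The model had 1 mean for every time point, a spread shared over time points (prior degrees of freedom 3.49, residual 4), two-sided moderated tests and Benjamini-Hochberg adjustment over all genes tested, with a threshold of 0.05. A gene was tested with values on 3 of 4 arrays, or both at 10 min. The script was tested on simulated data. Whether experiments came from separate cultures is stated only as independent experiments.

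Of the 43 genes 1 is counted with its route but not reported here by name. Array values are given for GCN4, ASN1, ARG1, HIS4, 4 isozyme pairs, the highest and lowest gene of each route at 60 min, and genes called against their route; other lists are given by counts and their 3 highest and 3 lowest genes at 60 min, and some further genes were named after their values were seen. The genes and lists were chosen with earlier results of these data known. Alternatives were the other pairing, other units of replication, a dye term, a replicate block, 3 normalizations, 2 filters, a robust prior, separate fits, and each array or experiment left out.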

Additional observations from a re-analysis of the deposited data

Results flagged for a closer look

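In 11 of 150 groups of 4 arrays examined (7.33%), 1 array lay far from the other 3. The cut-off would mark about 1 group in 20 if the 4 values were independent and normal. These arrays come in pairs from 2 experiments, so the rate to expect here is not known. At 20 min these were ARG4 on array 2 (0.73, others 1.04 to 1.07), LEU1 on array 3 (1.28, others 0.40 to 0.51), ILV1 on array 1 (0.98, others 0.10 to 0.23) and ARO2 on array 1 (1.02, others 0.25 to 0.37). At 60 min, array 2 stood apart in ILV3 (-1.81, others -0.94 to -0.92), ARO3 (-0.45, others 0.19 to 0.27) and HOM2 (-0.73, others 0.03 to 0.15). Array 1 of 60 min stood apart in TRP2 (0.20, others -0.14 to -0.09) and THR1 (0.069, others -1.17 to -0.96), and array 4 in ARG5,6 (0.90, others 0.32 to 0.41). Array 2 of 60 min also had the lowest median over all genes of the 18 arrays, -0.237. At 120 min LYS21 read -0.52 on array 4 against -1.71 to -1.59 on the others.

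The ratio differed between 20 and 60 min in ILV1 (-2.02), ARO4 (-1.18) and THR1 (-1.08) by the limma contrast, as described above.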

How the results depend on the processing

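No call of these genes reversed under any alternative; the counts moved, and the cause was not tested. In the order 20, 40, 60 and 120 min, 20 to 60 min, 60 to 120 min and F test, the other pairing of arrays gave 3, 18, 22, 28, 15, 7 and 26 calls. Over all genes that pairing gave 88, 1244, 2458, 2497, 1625, 655 and 1758. The fit as reported gave 21, 420, 1932, 1867, 966, 0 and 525, out of 4361, 4703, 4127, 4410, 3881, 3939 and 3714 genes tested. With each array as a replicate the calls of the genes described here were 3, 15, 20, 26, 12, 4 and 18, and with a dye term 3, 13, 19, 26, 11, 3 and 13. All genes gave 113, 1340, 2459, 2579, 1658, 694 and 1870, and with a dye term 94, 1280, 2429, 2543, 1627, 641 and 1834. With the experiment as a random block, the genes described here had 3, 11, 19, 9, 1 and 11 calls, leaving out 120 min. There the count stayed within 1.5 times that of the fit as reported. Calls over all genes also rose above the fit as reported in each of these comparisons under that block. The rise is thus not particular to the genes described here. Scaling to the same spread gave these genes 5, 3, 2 and 1 calls at 20, 60 and 120 min and from 20 to 60 min, and quantile normalization 6, 3, 2 and 1. All genes gave 312, 1157, 1067 and 329 after scaling, and 376, 1145, 1098 and 386 after quantile normalization. Fitted alone, 20, 40 and 120 min gave 2, 10 and 6 (65, 996 and 646 over all genes). Requiring 2 arrays gave 2 at 40 min (280 of 5154 over all genes), and requiring all arrays 1 in the F test (643 of 2555).

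With 1 array left out, the calls of the genes described here ran from 2 to 4 (40 min), 12 to 14 (60 min) and 10 to 16 (120 min). The calls ran from 0 to 5 from 20 to 60 min and from 0 to 2 in the F test. They stayed at 0 at 10 and 20 min and from 60 to 120 min. Over all genes, with 1 array left out, calls ran from 278 to 449 (40 min), 1888 to 1995 (60 min) and 1732 to 1881 (120 min). From 20 to 60 min they ran from 704 to 1025, and in the F test from 72 to 611. Leaving out 1 experiment keeps a single experiment value at that time point. Calls then fell at 40 and 60 min, both in these genes and over all genes. At 120 min calls of these genes fell without either experiment, and those over all genes fell only without B. Of the 33 calls of the genes described here, 15 were lost without some array. Without array 1 of 40 min the 40 min count was 2, and without experiment B it was 0; the 20 to 60 min count was 0 without array 2 of 60 min and 5 without array 2 of 20 min.

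The gap between the highest and lowest route was 1.32, 0.77, 1.38 and 2.05 at 10, 20, 60 and 120 min after scaling, and 1.54, 0.89, 1.47, 1.55 and 2.24 at 10, 20, 40, 60 and 120 min after quantile normalization. With 2 arrays required it was 1.80 at 60 min and 2.24 at 120 min. Left-out arrays or experiments gave gaps of 0.74 to 0.77 (10 min), 0.38 to 0.89 (20 min), 0.96 to 1.29 (40 min), 1.64 to 2.66 (60 min) and 1.97 to 2.80 (120 min).

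A replicate block for experiments A and B gave 7 calls at 40 min, with 385 over all genes against 420 in the fit as reported. It ended 2 of the 33 calls, ARO3 at 120 min (limma, adjusted p = 0.0598) and THR1 from 20 to 60 min (0.063). Deviations of same-lettered experiments correlated between time points at -0.167 to 0.418, so the letters are not shown to pair samples. Spots without a value limit BAT2, LYS1, HIS1, ARO2, ARG3 and TRP3, and 2 experiments per time point limit all tests.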
